A study of Homo sapiens with 2 samples.

Results

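Genes of the extracellular matrix and of its remodelling were examined in HMC3 cells, an established human line of immortalised microglia, after treatment with recombinant human periostin (rhPOSTN) or with PBS, its vehicle. The genes were taken by name: every gene listed as a collagen, laminin, thrombospondin, fibrillin, fibulin, lysyl oxidase, matrix metalloproteinase, ADAMTS protease or TIMP, together with FN1, TNC, SPARC, TGFBI, VCAN, HSPG2, NID1 and FSTL1. They came to 73 of the 11943 protein-coding genes in the tables, and the rule used no measured value. Both groups were HMC3 cells with the genotype label WT, grown in serum-containing medium, and a group was 1 deposited sample with 3 libraries. The rhPOSTN libraries stand for a single dose and duration, which the labels do not give and which the paper states with its figures. Whether the 3 libraries of a group are separate cultures is stated neither in the labels nor in the methods, so a p-value here reflects only how far the libraries spread, and that spread may be technical.

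The extracellular matrix is the protein scaffold that cells secrete around themselves. Collagens are trimers of alpha chains that form fibrils or sheets, laminins and type IV collagen build basement membranes, and glycoproteins such as fibronectin tie the scaffold to integrins on the cell surface. Lysyl oxidases cross-link collagen and elastin, matrix metalloproteinases (MMPs) and ADAMTS proteases cleave matrix proteins, and TIMPs inhibit these proteases. Periostin is itself a matricellular protein, a secreted matrix component that acts on cells through integrins, and in the brain most interstitial matrix lies around vessels, where pericytes and fibroblasts are its usual sources.

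Values are FPKM, fragments relative to transcript length and to the size of the library, so that levels can be compared between genes per length. The summed FPKM per library lay between 184122 and 195494 and the depth in reads is unknown. PBS library 3 stood apart: across the tested genes its correlation with the other 5 libraries was 0.913 to 0.94 on the log2 scale, against 0.973 to 0.983 among those 5, and the main values below are therefore also given without it. As to the label of microglia, the macrophage marker CD68 had 9.45 to 14.2 FPKM after rhPOSTN and 4.57 to 16.2 FPKM after PBS. TREM2 had 2.91 to 3.84 FPKM after rhPOSTN and 3.12 to 3.56 FPKM after PBS, and CD14 had 1.81 to 2.32 FPKM after rhPOSTN and 0.979 to 2.18 FPKM after PBS. Other markers of microglia and macrophages, among them AIF1, CX3CR1, P2RY12 and PTPRC, were not analysed here. Of 11 entries for fibroblasts and pericytes 7 were listed (TAGLN, MCAM, THY1, PDGFRB, CSPG4, S100A4 and ACTA2), summing to 191.9 to 219.9 FPKM after rhPOSTN and to 190.3, 193.9 and 298.0 FPKM in PBS libraries 1, 2 and 3. Astrocyte and endothelial markers were near the lower end, with SLC1A3 at 1.45 to 1.6 FPKM after rhPOSTN and 1.0 to 1.26 FPKM after PBS as the 1 listed of 6 astrocyte entries, and CDH5, the 1 listed of 6 endothelial entries, under 1 FPKM in every library.

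The matrix genes carried 1.04%, 0.901% and 0.897% of the summed FPKM in the rhPOSTN libraries, against 1.04%, 0.986% and 1.14% in the PBS libraries. A level of at least 1 FPKM on average in a group, the minimum for a test, was reached by 61 of the 73, and 29 had a mean of 10 FPKM or more over all libraries. MMP1, the interstitial collagenase that cleaves fibrillar collagen, had the highest mean of them, with 252.2, 278.9 and 270.1 FPKM after rhPOSTN and 291.8, 296.0 and 271.3 FPKM after PBS, and was the 54th highest of all listed genes. Next were FN1 (fibronectin), 63rd of all genes, and COL1A1, the alpha-1 chain of type I collagen, 139th. MMP1, FN1 and COL1A1 together made up 33.9% to 35.5% of the summed FPKM of the matrix genes after rhPOSTN and 34.8% to 35.3% after PBS. The 12 members under the minimum were COL1A2, COL5A3, COL4A6, COL8A2, COL17A1, LAMA3, FBLN7, ADAMTS2, ADAMTS10, MMP3, MMP9 and MMP17, with single values between 0.212 and 1.38 FPKM.

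**Figure D1:**
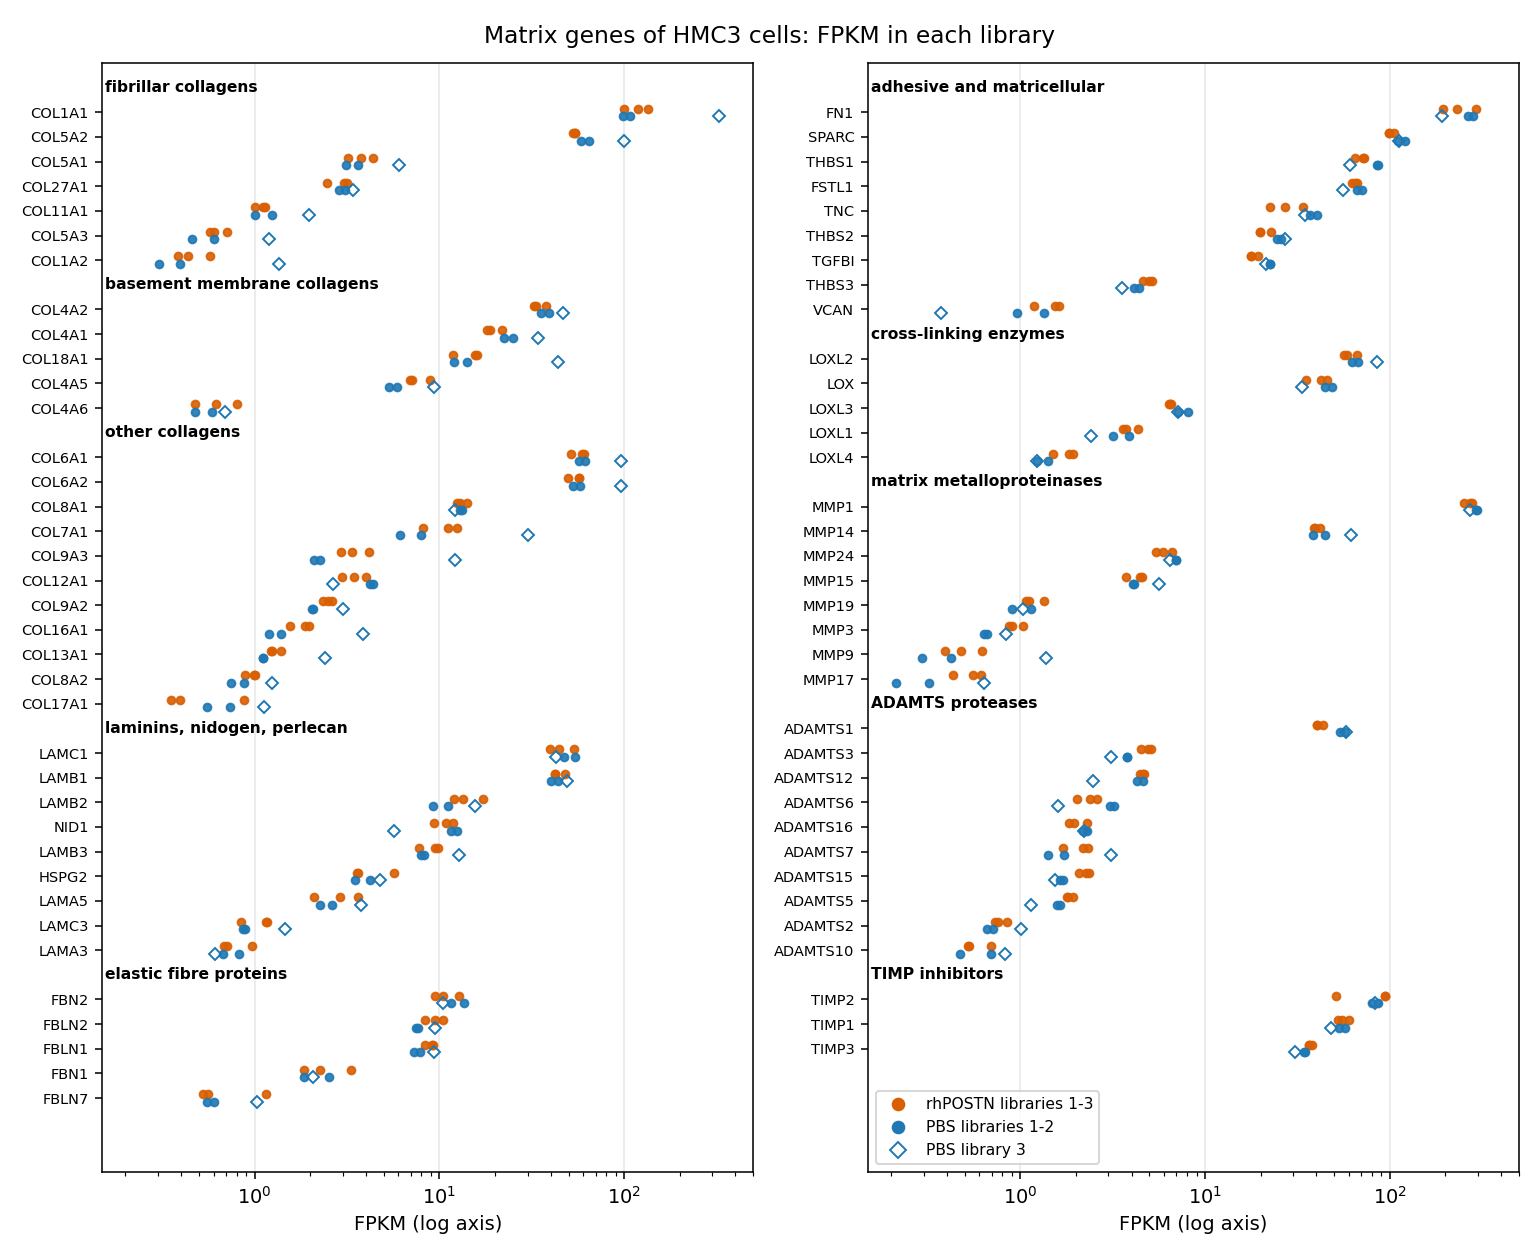
FPKM (log axis) of the matrix genes in each library, grouped by role: rhPOSTN libraries as orange circles, PBS libraries 1 and 2 as blue circles and PBS library 3 as open diamonds. MMP1, FN1 and COL1A1 lie furthest to the right, and the open diamond lies to the right of the other 5 points for 16 of the 18 tested collagens.

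No matrix gene passed the threshold between rhPOSTN and PBS. The groups were compared with limma on log2(FPKM + 1) over 10982 genes, and differences are given as rhPOSTN minus PBS in log2 units of FPKM + 1, a scale that compresses the difference of genes of low level. At an adjusted p under 0.05, 0 of the 61 tested members were called, against 2 genes or 0.0182% of all tested genes. Without PBS library 3 the count was again 0 members, against 11 genes or 0.1% of all. At an unadjusted p under 0.05, 3 members (4.92%) were higher after rhPOSTN, against 2.45% of all tested genes, and 5 members (8.2%) were lower, against 0.765% of all. Without PBS library 3 the members were 8 higher (13.1%, against 7.07% of all genes) and 9 lower (14.8%, against 2.48% of all genes). The 5 lower members of the first comparison, ADAMTS1, COL4A1, TNC, THBS2 and TGFBI, were all among those 9. Single libraries decided these counts: the lower members numbered 1 without rhPOSTN library 2, rhPOSTN library 3 or PBS library 1 and 3 without PBS library 2, and the higher ones numbered 0 without rhPOSTN library 1 and 1 without rhPOSTN library 3. Since whole cultures were measured, fewer cells expressing a gene and less of its RNA per cell cannot be told apart. With libraries scaled by the median of ratios the unadjusted split was 2 higher and 7 lower, and with libraries scaled to the same summed FPKM it was 2 and 2. For these scalings and for omissions other than that of PBS library 3, shares over all genes are not given here. No excess is read from those counts.

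A simple order of the libraries gave a like picture. The 3 rhPOSTN values lay above the 3 PBS values for 6 members (9.84%), ADAMTS3, ADAMTS5, ADAMTS15, LOXL4, THBS3 and TIMP3, where 8.94% of all tested genes did so. They lay below the 3 PBS values for 8 members (13.1%), ADAMTS1, COL4A1, COL5A2, LOXL3, SPARC, TGFBI, THBS2 and TNC, where 2.76% of all tested genes did so. The log2 difference was negative for 38 of the 61 members (62.3%) and for 36.5% of all tested genes, and its median was -0.072 over the members and 0.06 over all genes. Without PBS library 3 it was negative for 29 members (47.5%) and for 41.1% of all genes, with medians of 0.016 and 0.035. With scaling by the median of ratios it was negative for 44 of 61 members and for 5711 of 10973 genes. The medians were then -0.147 over the members and -0.009 over all genes.

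**Figure D2:**
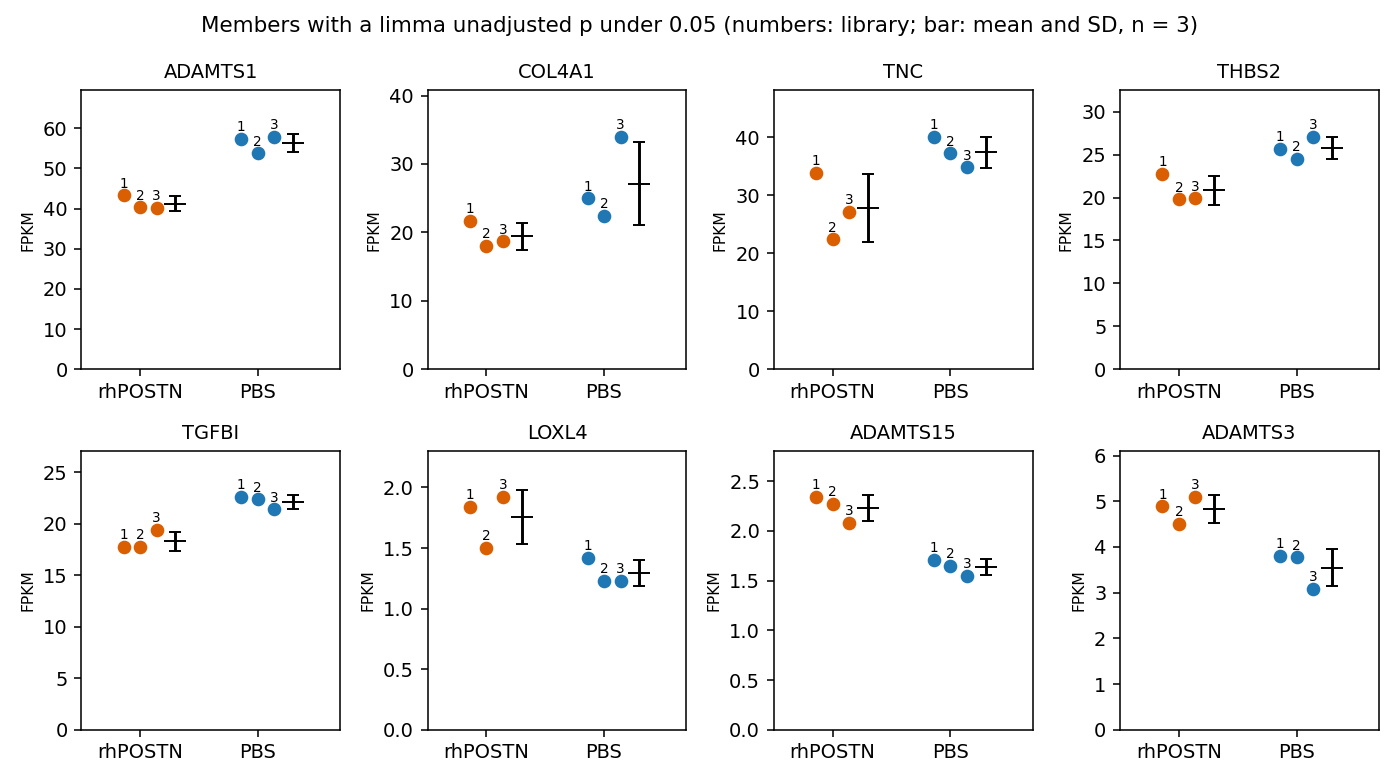
FPKM by library for the 8 members with an unadjusted limma p under 0.05, rhPOSTN left and PBS right, with points numbered by library and bars giving the mean and SD of 3 libraries. In each panel the 3 rhPOSTN points do not overlap the 3 PBS points, with the 5 lower members first and the 3 higher ones last, and 0 of the 8 passed the adjusted threshold.

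Among the adhesive and matricellular glycoproteins, secreted proteins that connect cells with the scaffold or modulate that contact, 6 of 9 differences were negative, with a median of -0.136 (7 of 9 and -0.209 without PBS library 3). TNC, tenascin-C, a hexameric glycoprotein of developing and injured tissue, had 33.9, 22.4 and 27.1 FPKM after rhPOSTN and 40.1, 37.2 and 34.8 FPKM after PBS. All rhPOSTN libraries lay below all PBS libraries, but rhPOSTN library 1 and PBS library 3 were close, and the log2 difference was -0.43 (SE 0.16, adjusted p = 0.951). TGFBI, a protein induced by TGF-beta that shares the fasciclin domains of periostin, had 17.8, 17.8 and 19.4 FPKM after rhPOSTN and 22.6, 22.4 and 21.4 FPKM after PBS. The spread within a group was small here (SD 0.927 and 0.64 FPKM) and the log2 difference was -0.26 (SE 0.1, adjusted p = 0.951). THBS2, thrombospondin-2, an inhibitor of vessel growth, had 22.8, 19.8 and 19.9 FPKM after rhPOSTN and 25.7, 24.5 and 27.1 FPKM after PBS, a log2 difference of -0.29 (SE 0.11, adjusted p = 0.951). Without PBS library 3 the differences of TNC, TGFBI and THBS2 were -0.48, -0.28 and -0.26. In the deposited tables TNC lies on GRCh37 chromosome 9 from 117781857 to 117880536, TGFBI on chromosome 5 from 135364584 to 135399507 and THBS2 on chromosome 6 from 169615875 to 169654139, and no other listed gene overlaps any of them.

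The related thrombospondins did not share one order. THBS1, which activates latent TGF-beta, had 72.3, 64.5 and 71.4 FPKM after rhPOSTN and 85.0, 86.0 and 60.7 FPKM after PBS, so that PBS library 3 was the lowest of all 6. Its log2 difference was -0.14 with every library and -0.3 without PBS library 3 (adjusted p = 0.951 and 0.46). THBS3 had 5.13, 4.99 and 4.64 FPKM after rhPOSTN and 4.13, 4.39 and 3.55 FPKM after PBS, a positive log2 difference of 0.24 (adjusted p = 0.951). Its span overlaps MTX1 on the opposite strand, and the sources used here do not say whether strand entered the estimates.

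SPARC, or osteonectin, a collagen-binding protein, had 98.6, 98.9 and 104.9 FPKM after rhPOSTN and 110.3, 120.2 and 112.5 FPKM after PBS, with no overlap and a log2 difference of -0.18 (adjusted p = 0.951). FN1 spread widely in both groups, with 292.9, 193.7 and 230.8 FPKM after rhPOSTN and 280.9, 264.6 and 191.9 FPKM after PBS, and its log2 difference of -0.041 (SE 0.21) turned positive when rhPOSTN library 2, PBS library 1 or PBS library 2 was left out. FSTL1, a secreted relative of SPARC, differed by 0.009 (SE 0.12), or by -0.093 without PBS library 3. VCAN, the large proteoglycan versican, had 1.54, 1.63 and 1.19 FPKM after rhPOSTN and 0.96, 1.35 and 0.374 FPKM after PBS. The groups overlapped and the log2 difference was 0.4 (SE 0.21, adjusted p = 0.951), or 0.19 without PBS library 3, its lowest library.

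The 250 bases before the start of THBS2 are printed because its groups did not overlap and they hold a TATA box. They are RefSeq sequence on GRCh38.p14, chr6:169253847-169254096, minus strand, with the letters TATAAA in capitals, beginning 29 bases before the start.
THBS2: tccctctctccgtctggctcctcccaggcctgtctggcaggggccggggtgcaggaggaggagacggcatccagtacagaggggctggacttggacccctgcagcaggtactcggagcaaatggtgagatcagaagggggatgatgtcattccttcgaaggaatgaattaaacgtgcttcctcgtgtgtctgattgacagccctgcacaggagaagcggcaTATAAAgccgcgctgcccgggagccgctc
Promoter windows of 300 bases (250 before to 50 after a start) were matched by symbol for 54 of the 73 members. The letters TATAAA on either strand occurred in windows of 7 of them (13.0%), COL6A2, COL7A1, COL13A1, COL17A1, COL18A1, ADAMTS10 and THBS2, and in 11.5% of all 35116 windows. An AP-1 element, TGANTCA on either strand, was in windows of 3 members (5.56%, ADAMTS12, LAMA3 and LAMB3), against 7.71% of all windows. An NF-kB consensus was in windows of 6 members (11.1%, COL6A2, COL7A1, FSTL1, LAMB3, LOXL4 and THBS3), against 5.91% of all. A member can have several windows and counted when any of them matched, while the share of all is per window. The shares of members and of all windows are therefore in unlike units, and no excess is read from them. The matches are letters in a window, so the shares describe sequence only.

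The proteases and their inhibitors included the lowest unadjusted p of the matrix genes. ADAMTS1, a secreted protease that cleaves versican and aggrecan, had 43.3, 40.3 and 40.1 FPKM after rhPOSTN and 57.4, 53.7 and 57.9 FPKM after PBS. The gap between the groups, more than 10 FPKM, was wider than the range within either group. The rhPOSTN mean was 0.732 of the PBS mean, and the log2 difference was -0.44 (SE 0.1, adjusted p = 0.951) with every library and -0.42 (adjusted p = 0.281) without PBS library 3. Over the 15 alternative settings its adjusted p lay between 0.281 and 1.0. In the deposited tables it is listed as ENSG00000154734.14_4 and spans 28208066 to 28217728 on the minus strand of GRCh37 chromosome 21, 72503 bases from ADAMTS5, which lies on the same strand.

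ADAMTS5, an aggrecanase like ADAMTS1, had 1.79, 1.82 and 1.94 FPKM after rhPOSTN and 1.64, 1.58 and 1.14 FPKM after PBS, so the order of the groups was opposite to that of its neighbour. Its log2 difference was 0.22 (SE 0.12, adjusted p = 0.951), or 0.13 without PBS library 3. ADAMTS3, a procollagen N-proteinase that also acts on VEGF-C, had 4.89, 4.5 and 5.09 FPKM after rhPOSTN and 3.8, 3.77 and 3.08 FPKM after PBS, a log2 difference of 0.36 (SE 0.12, adjusted p = 0.951). ADAMTS15, another protease of versican, had 2.34, 2.27 and 2.08 FPKM after rhPOSTN and 1.71, 1.65 and 1.55 FPKM after PBS, a log2 difference of 0.3 (SE 0.1, adjusted p = 0.951). ADAMTS3 and ADAMTS15 had no overlap between groups, and PBS library 3 was the lowest library of both. Without that library their differences were 0.28 and 0.27. Of the 8 tested ADAMTS genes 5 had a positive difference (4 with scaling by the median of ratios), and by level ADAMTS1 outweighed the others: the class summed to 65.3, 61.1 and 61.1 FPKM after rhPOSTN and to 77.2, 73.4 and 74.9 FPKM after PBS. ADAMTS6 had 2.59, 2.03 and 2.39 FPKM after rhPOSTN and 3.22, 3.07 and 1.6 FPKM after PBS, and its log2 difference of -0.092 became -0.32 without PBS library 3 and positive, at 0.033 and 0.007, without PBS library 1 or 2. ADAMTS7, ADAMTS12 and ADAMTS16 differed by 0.03, 0.25 and -0.1, with overlapping groups, or by 0.25, 0.03 and -0.1 without PBS library 3.

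Of the 5 tested MMPs 4 had a negative difference, with a median of -0.101, or -0.039 without PBS library 3. MMP1 differed by -0.1 (SE 0.11, adjusted p = 0.951), its means being 267.0 ± 13.6 FPKM after rhPOSTN and 286.3 ± 13.2 FPKM after PBS (SD, n = 3 libraries each). MMP14, the membrane-bound protease that activates pro-MMP2, had 39.5, 42.1 and 38.9 FPKM after rhPOSTN and 44.5, 38.2 and 61.9 FPKM after PBS, and its log2 difference of -0.23 shrank to -0.039 without PBS library 3. MMP19 was the member of this class with a positive difference, 0.1 (SE 0.1), while MMP15 and MMP24 differed by -0.091 and -0.15, or by 0.034 and -0.19 without PBS library 3. MMP3, stromelysin-1, lies 37641 bases from MMP1 and stayed under the minimum, with 0.903, 1.03 and 0.872 FPKM after rhPOSTN and 0.635, 0.66 and 0.837 FPKM after PBS.

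The 3 TIMPs were all well measured. TIMP1 had 52.4, 60.3 and 55.2 FPKM after rhPOSTN and 53.1, 57.4 and 48.2 FPKM after PBS. TIMP3, the TIMP that binds to the matrix and inhibits ADAMTS proteases, had 36.4, 36.7 and 37.9 FPKM after rhPOSTN and 34.5, 34.7 and 30.7 FPKM after PBS, with no overlap and a log2 difference of 0.15 (SE 0.1, adjusted p = 0.951), or 0.1 without PBS library 3. TIMP2 had 94.1, 94.5 and 50.9 FPKM after rhPOSTN and 80.4, 86.5 and 83.0 FPKM after PBS. Its rhPOSTN library 3 was the lowest of the 6, and without it the log2 difference of -0.11 became 0.18. The span of TIMP2 overlaps CEP295NL on the same strand, so fragments there could be assigned to either gene.

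Within each library, the level of the protease relative to an inhibitor gave groups that did not overlap for 2 of 3 pairs. The ratio of ADAMTS1 to TIMP3 was 1.19, 1.1 and 1.06 after rhPOSTN and 1.66, 1.55 and 1.89 after PBS. This ratio had to separate the groups, since ADAMTS1 was lower and TIMP3 higher in every rhPOSTN library than in every PBS library. The ratio of MMP1 to TIMP1 was 4.81, 4.63 and 4.89 after rhPOSTN and 5.49, 5.15 and 5.63 after PBS. Both keep their order without PBS library 3, the highest library of each. MMP14 over TIMP2, by contrast, was 0.419, 0.445 and 0.763 after rhPOSTN and 0.553, 0.442 and 0.746 after PBS, with overlapping groups. These ratios were chosen with the values of their members known and were not tested. Ratios of further pairs of members were computed, and of these only COL4A1 to COL4A2, given below, separated the groups with every library. The groups overlapped for COL1A1/COL1A2, COL6A1/COL6A2, COL5A2/COL5A1, COL4A5/COL4A6, LAMB1/LAMC1 and LAMA5/LAMC1. How often ratios of gene pairs beyond those named here separate the groups was not examined.

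**Figure D3:**
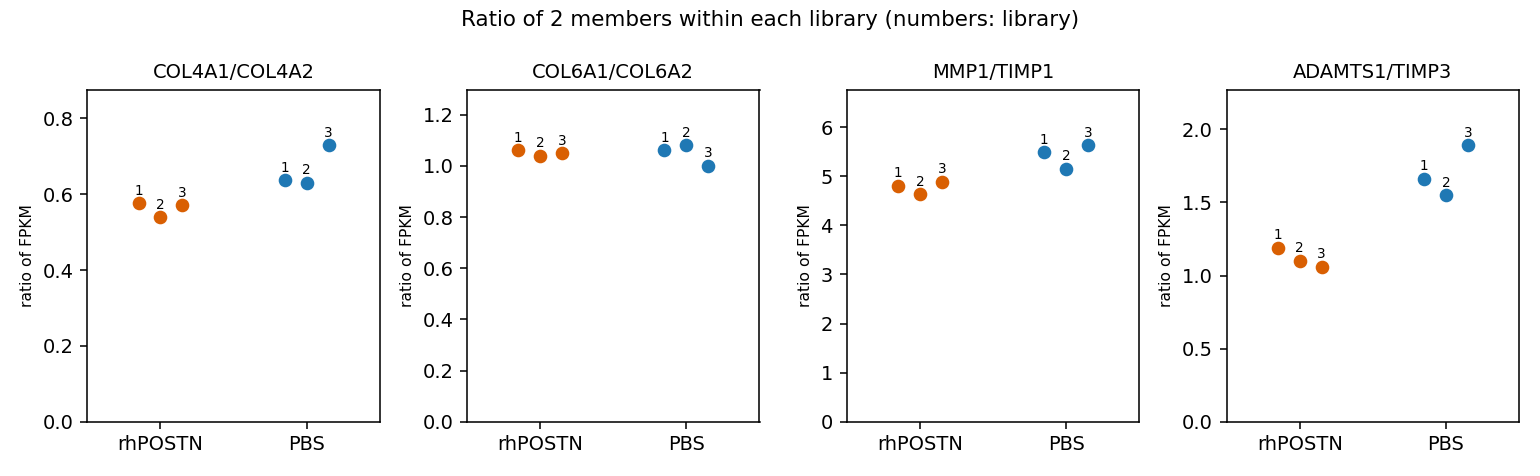
Ratio of the FPKM of 2 members within each library, rhPOSTN left and PBS right, with points numbered by library and axes from 0. The groups do not overlap for COL4A1/COL4A2, MMP1/TIMP1 and ADAMTS1/TIMP3, and they overlap for COL6A1/COL6A2, which lies between 1.04 and 1.06 after rhPOSTN and between 1.0 and 1.08 after PBS.

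The collagens varied more with 1 library than with the treatment. Their summed level was 440.2, 410.8 and 369.1 FPKM in the rhPOSTN libraries and 418.1, 382.0 and 833.5 FPKM in the PBS libraries, so that collagens made up 21.6% to 23.5% of the matrix FPKM after rhPOSTN, 21.5% and 20.2% in PBS libraries 1 and 2 and 37.4% in PBS library 3. The 7 listed markers of fibroblasts and pericytes also summed highest in PBS library 3, at 298.0 FPKM against 190.3 to 219.9 FPKM in the other libraries. TAGLN carried most of this, with 199.1 FPKM in PBS library 3 against 103.8 to 128.6 FPKM in the others. Of the 7, 3 (TAGLN, MCAM and CSPG4) were above the other 5 libraries there. PDGFRB was below them, and THY1, ACTA2 and S100A4 lay within their range. The part of these markers in the collagen levels was not tested. PBS library 3 was above the other 5 libraries for 16 of the 18 tested collagens, the exceptions being COL8A1 and COL12A1. Over all 61 members it was above for 28 (45.9%, against 30.1% of all tested genes) and below for 17 (27.9%, against 44.4% of all). With every library 15 of the 18 collagen differences were negative, with a median of -0.162, and without PBS library 3 this was 8 of 18, with a median of 0.062. The other 43 members had a median of -0.006 with every library and 0.016 without PBS library 3.

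COL1A1 had 135.0, 118.5 and 99.9 FPKM after rhPOSTN and 108.2, 98.3 and 324.2 FPKM after PBS. Its log2 difference of -0.37 (SE 0.45, adjusted p = 0.951) became 0.18 without PBS library 3. COL7A1, the anchoring fibril collagen, had 12.4, 11.1 and 8.2 FPKM after rhPOSTN and 7.98, 6.1 and 30.1 FPKM after PBS, and its difference of -0.14 became 0.51 (adjusted p = 0.52). COL9A3, a chain of the fibril-associated type IX collagen, had 3.37, 4.18 and 2.93 FPKM after rhPOSTN and 2.25, 2.09 and 12.1 FPKM after PBS, and its difference of -0.19 became 0.49 (adjusted p = 0.46). The difference of COL16A1 was -0.072 with every library and 0.29 (adjusted p = 0.52) without PBS library 3. That of COL18A1, the source of endostatin, was -0.44 and 0.13. For these 5 collagens PBS library 3 was 2.95 to 5.59 times the mean of PBS libraries 1 and 2, and their sign rests on that library. The sign of COL5A1 and COL13A1 turned likewise, which made 7 of the 18 tested collagens. COL9A3 overlaps TCFL5 and COL18A1 overlaps SLC19A1, both on the opposite strand.

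**Figure D4:**
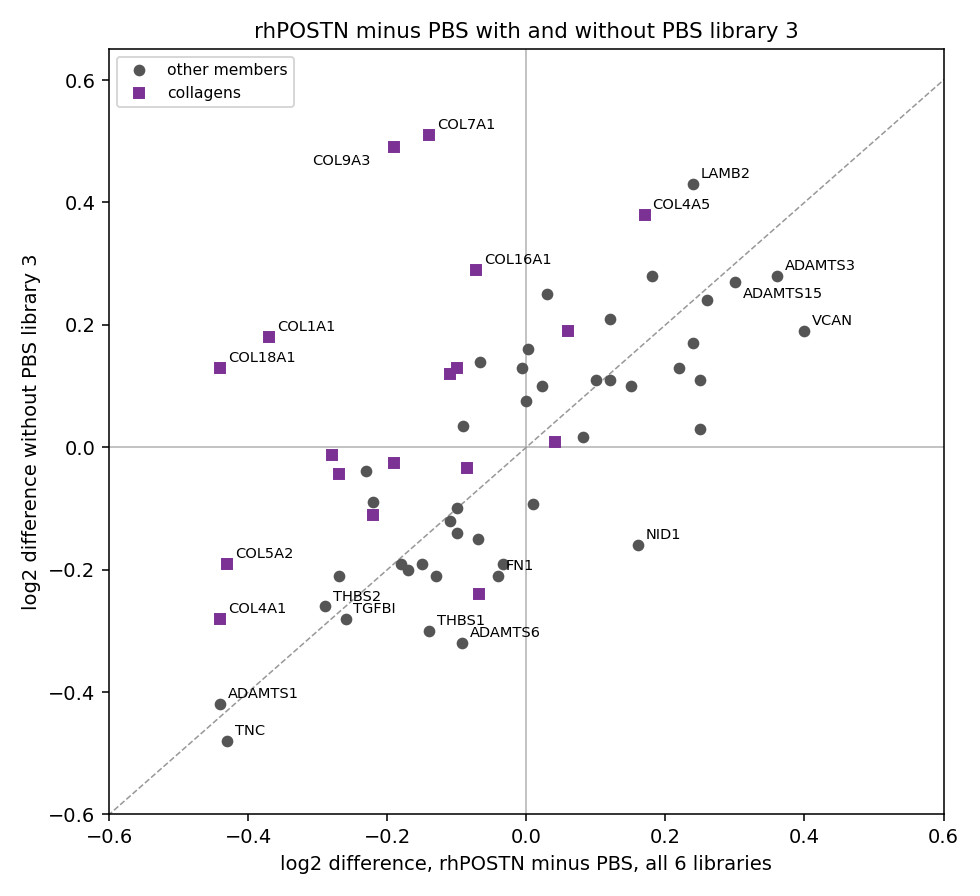
log2 difference (rhPOSTN minus PBS) of the 61 tested members with all 6 libraries (horizontal axis) and without PBS library 3 (vertical axis), with collagens as purple squares, other members as grey circles and the dashed line marking equal values. COL7A1, COL9A3, COL16A1, COL1A1 and COL18A1 lie in the upper left, where the sign turns, while ADAMTS1, TNC, THBS2 and TGFBI stay near the line.

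The rank of PBS library 3 went with base composition. For each gene the mean log2(FPKM + 1) of PBS libraries 1 and 2 was subtracted from that of PBS library 3. Over the 61 members this difference had a Spearman rho of 0.66 with the GC content of the longest coding transcript (GENCODE 29). Over 10894 genes with a GC value the rho was 0.49, and the points share the same 3 libraries. The rho was 0.63 over the 18 collagens and 0.64 over the 43 other members. The median GC content was 61.2% for the collagens, 55.4% for all 61 members and 48.7% for all tested genes. Among the collagens COL9A3, with 67.4% GC, stood in PBS library 3 at 5.59 times its mean in PBS libraries 1 and 2, and COL5A2, with 47.9%, at 1.63 times. The log2 difference between rhPOSTN and PBS had a rho of -0.14 with GC content over the members, against -0.25 over all genes, and without PBS library 3 of 0.45, against 0.26 over all genes. The part of GC content in these differences was not tested.

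**Figure D5:**
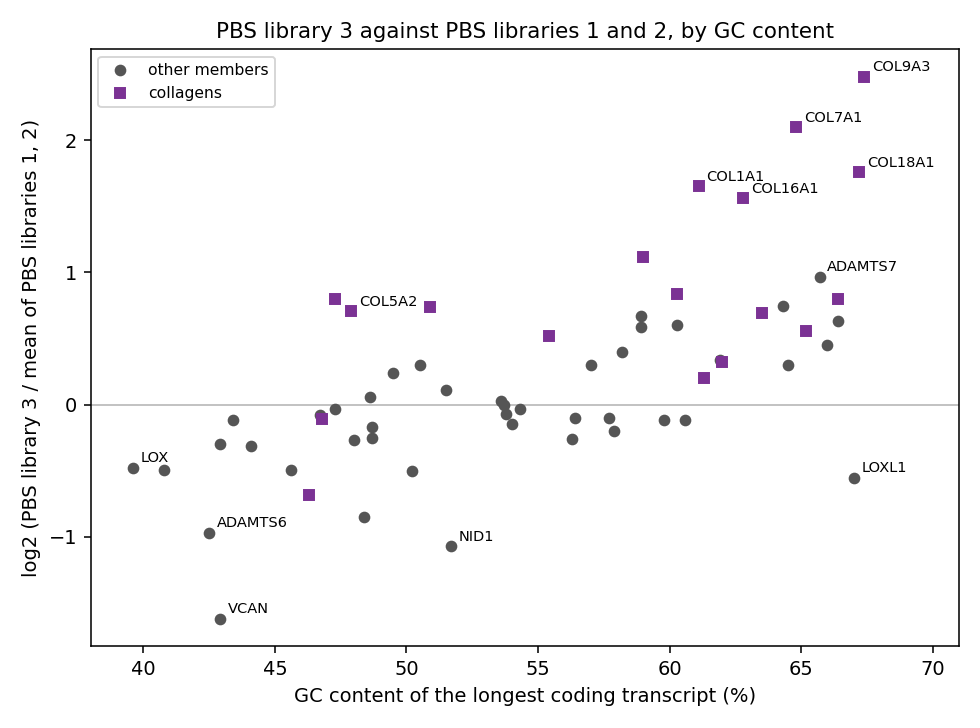
log2 ratio of the FPKM in PBS library 3 to the mean of PBS libraries 1 and 2 against the GC content (%) of the longest coding transcript, for the 61 tested members, with collagens as purple squares and other members as grey circles. The ratio is of plain FPKM, whereas the rho in the text used log2(FPKM + 1). The points climb from VCAN and ADAMTS6 at the lower left to COL9A3, COL7A1 and COL18A1 at the upper right, and LOXL1 lies below the rest at its GC content.

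Among the fibrillar collagens COL5A2, a chain of the type V collagen that seeds fibrils, had 52.6, 54.1 and 54.1 FPKM after rhPOSTN and 64.6, 58.4 and 100.3 FPKM after PBS. The groups did not overlap, and the log2 difference of -0.43 (SE 0.21, adjusted p = 0.951) was -0.19 without PBS library 3. COL1A1 was accompanied by little COL1A2, the other chain of type I collagen: COL1A2 had 0.572, 0.434 and 0.383 FPKM after rhPOSTN and 0.393, 0.305 and 1.36 FPKM after PBS. The ratio of COL1A1 to COL1A2 was 236 to 273 after rhPOSTN and 239 to 322 after PBS. PBS library 3 was the highest library for both chains, and the ratio in it stayed within the range of the others. COL5A1, COL11A1 and COL27A1 differed by -0.1, -0.19 and -0.085, or by 0.13, -0.025 and -0.034 without PBS library 3, and COL5A3 had at most 1.19 FPKM.

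COL4A1 and COL4A2, the chains of the main basement membrane collagen, are transcribed away from each other on chromosome 13. COL4A1 had 21.7, 18.0 and 18.7 FPKM after rhPOSTN and 25.0, 22.4 and 34.0 FPKM after PBS, a log2 difference of -0.44 (SE 0.17, adjusted p = 0.951), or -0.28 (adjusted p = 0.52) without PBS library 3. COL4A2 had 37.7, 33.3 and 32.7 FPKM after rhPOSTN and 39.3, 35.5 and 46.6 FPKM after PBS, with overlapping groups and a difference of -0.22 (SE 0.14), or -0.11 without PBS library 3. The ratio of COL4A1 to COL4A2 was 0.576, 0.539 and 0.571 after rhPOSTN and 0.637, 0.631 and 0.729 after PBS. The ratio thus separated the groups although both genes were highest in PBS library 3, and it was not tested. In the deposited GRCh37 tables the spans of the genes, 110801310 to 110959496 (COL4A1) and 110958159 to 111165374 (COL4A2), overlap on opposite strands. The interval between their RefSeq starts on GRCh38.p14, chr13:110307158-110307283, given here on the plus strand because the pair shares it, is 126 bases long with 80.2% GC.
COL4A1 to COL4A2: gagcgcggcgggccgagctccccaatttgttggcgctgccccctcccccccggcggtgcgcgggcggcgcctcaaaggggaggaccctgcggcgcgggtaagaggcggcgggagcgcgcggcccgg
COL4A5 and COL4A6 form a like divergent pair on chromosome X, 347 bases apart in the tables. COL4A5 had 8.91, 6.96 and 7.15 FPKM after rhPOSTN and 5.33, 5.92 and 9.4 FPKM after PBS, a difference of 0.17 (SE 0.21) that was 0.38 (adjusted p = 0.503) without PBS library 3. COL4A6 stayed under 1 FPKM in every library.

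The chains of type VI collagen, a collagen of beaded filaments, followed each other closely. COL6A1 had 60.7, 59.4 and 51.8 FPKM after rhPOSTN and 61.1, 57.0 and 95.8 FPKM after PBS. COL6A2 had 57.3, 57.1 and 49.4 FPKM after rhPOSTN and 57.5, 52.6 and 95.7 FPKM after PBS. Their differences of -0.27 and -0.28 were -0.044 and -0.013 without PBS library 3. COL8A1, COL9A2, COL12A1 and COL13A1 differed by 0.041, 0.06, -0.068 and -0.11, or by 0.008, 0.19, -0.24 and 0.12 without PBS library 3, and COL8A2 and COL17A1 were under the minimum.

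The laminins, cross-shaped trimers of basement membranes, had 4 positive and 5 negative differences together with NID1 and HSPG2, with a median of -0.001. Scaled to the same summed FPKM they had 3 negative differences and scaled by the median of ratios 7, so no direction is given for the class. LAMB1, a beta chain common to many laminins, had 42.5 to 47.9 FPKM after rhPOSTN and 40.2 to 49.3 FPKM after PBS and differed by -0.001. LAMC1, the main gamma chain, had 39.6 to 53.8 FPKM after rhPOSTN and 42.6 to 54.5 FPKM after PBS and differed by -0.07. LAMB2 had 17.2, 13.4 and 12 FPKM after rhPOSTN and 11.2, 9.23 and 15.5 FPKM after PBS. Its difference of 0.24 (SE 0.21, adjusted p = 0.951) was 0.43 (adjusted p = 0.52) without PBS library 3, and PBS libraries 1 and 2 both lay below every rhPOSTN library. NID1, the nidogen that links laminin to type IV collagen, lay low in PBS library 3, with 10.9, 9.31 and 11.9 FPKM after rhPOSTN and 12.5, 11.5 and 5.71 FPKM after PBS, and its difference of 0.16 became -0.16 without that library. LAMA5, LAMB3, LAMC3 and HSPG2 (perlecan) differed by 0.002, -0.067, -0.006 and 0.023, or by 0.16, 0.14, 0.13 and 0.1 without PBS library 3.

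Elastic fibre genes showed small differences in both directions. FBN2, a microfibril protein, had 12.7, 9.43 and 10.4 FPKM after rhPOSTN and 13.6, 11.6 and 10.5 FPKM after PBS, a difference of -0.13, or -0.21 without PBS library 3. FBLN2 had 10.4, 9.46 and 8.41 FPKM after rhPOSTN and 7.51, 7.62 and 9.49 FPKM after PBS, a difference of 0.18, or 0.28 without PBS library 3. FBLN1 and FBN1 both differed by 0.12, or by 0.21 and 0.11 without PBS library 3.

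Of the lysyl oxidases, LOXL2 and LOX had the highest levels. LOXL2 had 66.5, 58.9 and 56.8 FPKM after rhPOSTN and 66.9, 62.3 and 85.3 FPKM after PBS, a difference of -0.22 (SE 0.15), or -0.089 without PBS library 3. LOX had 45.9, 35.3 and 42.2 FPKM after rhPOSTN and 44.8, 48.7 and 33.5 FPKM after PBS, with overlap and a difference of -0.033, or -0.19 without PBS library 3. LOXL4, the least abundant, had 1.84, 1.5 and 1.92 FPKM after rhPOSTN and 1.42, 1.23 and 1.23 FPKM after PBS, without overlap and with a log2 difference of 0.26 (SE 0.11, adjusted p = 0.951). The difference of LOXL4 was 0.24 without PBS library 3. LOXL3 had 6.35, 6.56 and 6.49 FPKM after rhPOSTN and 7.17, 8.04 and 7.1 FPKM after PBS, the opposite order, with a difference of -0.17 (SE 0.11). LOXL3 overlaps DOK1 and HTRA2 on the opposite strand. LOXL1 differed by 0.25 (SE 0.16), or by 0.11 without PBS library 3, the lowest of the 6. The bases before the start of LOXL4 are printed as a member with an NF-kB match, from RefSeq on GRCh38.p14, chr10:98268195-98268444, minus strand, with the match in capitals, beginning 210 bases before the start.
LOXL4: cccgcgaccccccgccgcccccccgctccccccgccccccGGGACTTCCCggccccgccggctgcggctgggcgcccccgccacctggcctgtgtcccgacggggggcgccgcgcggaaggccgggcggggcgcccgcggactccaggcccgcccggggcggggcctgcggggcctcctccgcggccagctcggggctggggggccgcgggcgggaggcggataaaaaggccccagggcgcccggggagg

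Genes that act with the matrix but do not belong to the named families were described from 7 lists, and 0 of their tested genes passed the adjusted threshold, with or without PBS library 3. Of the 18 tested genes of collagen folding and modification, 14 had a negative difference, with a median of -0.063, or 11 with a median of -0.019 without PBS library 3. P3H2, a prolyl 3-hydroxylase, was the gene of this list with an unadjusted p under 0.05, at 9.66, 9.15 and 9.45 FPKM after rhPOSTN and 7.21, 7.36 and 7.75 FPKM after PBS (log2 difference 0.3, adjusted p = 0.951). MIA3, which loads procollagen into transport carriers, had the next largest positive difference, 0.15, or 0.012 without PBS library 3. The largest negative differences were those of P3H3 (-0.33) and P3H4 (-0.31), and without PBS library 3 they were 0.1 and 0.18. SERPINH1, the collagen chaperone HSP47, likewise had 24.0, 22.1 and 18.9 FPKM after rhPOSTN and 19.7, 18.2 and 37.0 FPKM after PBS.

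In the list of procollagen processing and fibril assembly 4 of 5 tested genes had a positive difference, or 3 of 5 without PBS library 3. TLL1, a protease of the BMP1 family that removes procollagen C-propeptides, had 2.91, 2.48 and 2.66 FPKM after rhPOSTN and 2.16, 1.93 and 1.8 FPKM after PBS, without overlap and with a log2 difference of 0.31 (adjusted p = 0.951). PCOLCE, an enhancer of that cleavage, and PCOLCE2 differed by 0.22 and -0.15, or by 0.23 and -0.25 without PBS library 3. In the list of elastic fibre and latent TGF-beta partners 6 of 9 tested genes were positive. That left 33.3% negative, near the 36.5% of all tested genes. MFAP1, counted among the 6, stood at 0.002, and its part in elastic fibres was not examined. The largest differences in each direction were those of LTBP3 at 0.16, MFAP2 at 0.12, LTBP4 at -0.2 and MFAP3 at -0.39. The same genes stood at 0.33, 0.068, 0.24 and -1.01 without PBS library 3, so that LTBP4 turned its sign. MFAP3 spread widely at a low level, with 2.48, 0.41 and 1.57 FPKM after rhPOSTN and 3.25, 4.18 and 0.295 FPKM after PBS. Its difference without PBS library 3 had an SE of 0.38 (adjusted p = 0.52).

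In the list of hyaluronan and proteoglycans 6 of 11 were positive. NID2, the second nidogen, had 6.25, 5.38 and 5.91 FPKM after rhPOSTN and 4.35, 4.12 and 3.49 FPKM after PBS, without overlap and with a log2 difference of 0.46 (SE 0.12, adjusted p = 0.951), larger in size than that of any tested member. HAS2, a hyaluronan synthase, had 2.23, 2.07 and 2.63 FPKM after rhPOSTN and 3.94, 4.2 and 2.08 FPKM after PBS, where PBS library 3 lay with the rhPOSTN libraries. Its log2 difference was -0.38 (SE 0.22, adjusted p = 0.951), or -0.62 (SE 0.1, adjusted p = 0.274) without PBS library 3. AGRN and HYAL2 differed by -0.2 and 0.15, or by 0.28 and 0.057 without PBS library 3, which had 45.4 FPKM of AGRN.

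The plasminogen system, a further route of matrix breakdown, had 5 positive and 5 negative differences with the other protease inhibitors. The largest differences of this list were those of SLPI (-0.53) and PLAUR (-0.45) on the negative side and TFPI2 (0.35) and RECK (0.21), a membrane-anchored MMP inhibitor, on the positive side. Leaving out PBS library 3 brought these to -0.19, -0.27, 0.083 and 0.13. Among the 3 CCN proteins CYR61 had 213.3, 226.2 and 229.2 FPKM after rhPOSTN and 240.8, 242.5 and 254.7 FPKM after PBS, with no overlap and a difference of -0.14, while CTGF and NOV differed by 0.26 and -0.08, or by 0.13 and -0.11 without PBS library 3. Of the 7 ADAM sheddases and membrane proteases, DPP4 (0.3), ADAM10 (0.21), ADAM8 (-0.17) and ADAM9 (-0.19) had the largest differences in each direction with every library. Without PBS library 3 these were -0.067, 0.059, 0.017 and -0.15, and ADAM15, at -0.033 with every library, had the largest, 0.33.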

How the data were processed

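RNA of HMC3 cells was sequenced in 3 libraries after rhPOSTN and 3 after PBS, grouped by the treatment label. The authors selected poly(A) RNA, made libraries with the KAPA Stranded kit, trimmed reads with Cutadapt, aligned them with HISAT2 and estimated levels with StringTie and Ballgown. The labels name rRNA removal as another option. The deposited values are FPKM per gene and library, on GRCh37 according to the submitters' processing notes. The unit of the rhPOSTN table, whose header gives none, follows the PBS table and the methods. The sources used here give no version for Cutadapt, HISAT2, StringTie or Ballgown. Read depth is unknown, so counting intervals cannot be had.

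Genes averaging 1 FPKM or more in either group were tested with limma 3.58.1 (R 4.3.3, lmFit, eBayes with a trend) on log2(FPKM + 1), with Benjamini-Hochberg adjustment over 10982 genes. The test was checked on simulated data. The members, role classes, lists and rule for named genes were written with earlier results of these data known. That rule takes the 10 members of highest level, those with an unadjusted p under 0.05 with or without PBS library 3, the largest difference in each direction per class, and of each list the 2 largest in each direction and those with an unadjusted p under 0.05. Ratios and genes outside the rule were chosen with their values seen. Alternatives were other pseudocounts (0.1 and 5), filters (none, 5 FPKM), scalings and limma settings, a block for the library number, and omission of each library. Promoters are RefSeq sequence on GRCh38.p14. A few genes are not reported here.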

Additional observations from a re-analysis of the deposited data

How the results depend on the processing

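The 33 members named by the rule kept the sign of their log2 difference in 469 of 486 values over 15 alternative settings, and 24 of them kept it in all. The count of matrix genes at an adjusted p under 0.05 was 0 in each setting. Of all genes, 2 were called, against 1 with a pseudocount of 0.1, 1 with the filter at 5 FPKM and 1 with a block for the library number, and 1 to 11 with a library left out, 11 being without PBS library 3. The members higher at an unadjusted p under 0.05 numbered 3, against 0 with the filter at 5 FPKM, 1 with the block and 0 to 8 with a library left out. The lower ones numbered 5, against 2 with libraries scaled to the same summed FPKM, 2 with the block and 1 to 9 with a library left out. Except without PBS library 3, shares over all genes are not given for these alternatives. The deviations of same-numbered libraries from their group means had correlations of -0.044, -0.187 and -0.424. With 3 libraries a group these are not independent and PBS library 3 weighs heavily. They cannot decide whether the numbers pair the libraries. The median difference of the members, -0.072, was -0.138 with the filter at 5 FPKM, -0.147 with scaling by the median of ratios and -0.139 to 0.016 with a library left out.

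Signs turned with scaling by the median of ratios for COL9A2 (-0.0) and FSTL1 (-0.072). With a library left out, the range of the difference was -0.32 to 0.033 for ADAMTS6, -0.28 to 0.29 for COL16A1, -0.68 to 0.18 for COL1A1, -0.55 to 0.51 for COL7A1, -0.007 to 0.19 for COL9A2, -0.55 to 0.49 for COL9A3, -0.21 to 0.1 for FN1, -0.093 to 0.083 for FSTL1 and -0.26 to 0.18 for TIMP2. The causes were not tested. With 3 libraries a group, unknown depth and 1 library that stands apart, differences of the size seen here (-0.44 to 0.4) could not be told from the spread at the adjusted threshold.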
